A study of Mus musculus with 23 samples.

Results

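miR-21a is the mouse form of miR-21, and its hairpin gives 2 mature miRNAs, miR-21a-5p from the 5′ arm and miR-21a-3p from the 3′ arm. Both, mmu-miR-21a-5p and mmu-miR-21a-3p in full, were taken by name from the table of 1218 mature miRNAs counted in the livers of this study, so the account covers 2 of 1218 miRNAs in 23 livers. The mice were F3 males of the C57bl/6J strain, the last of 3 generations bred on a growing diet with either sunflower oil rich in oleic acid (the control lineage) or fish oil rich in eicosapentaenoic acid (EPA, the omega 3 lineage). The reference group was 8 mice of the control lineage on a low-fat diet. HFoleic was 8 mice of the same lineage on a diet high in fat and sucrose. HFepa was 7 mice of the omega 3 lineage on that high-fat diet. These are the mice with small RNA libraries, and the paper's methods give larger reference and HFepa groups. No low-fat group of the omega 3 lineage was sequenced, so HFepa differed from the reference in both lineage and diet. All livers were taken in fasting, and each mouse gave 1 small RNA library.

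miR-21 is one of the abundant miRNAs of most tissues. It is transcribed in part from its own promoter by factors that respond to inflammatory signals, and its 5p strand, the guide, represses transcripts of tumour suppressors and signalling inhibitors such as Pdcd4, while most of the 3p strand, the passenger, is degraded after the duplex is loaded. In the liver it is known from hepatocytes, leukocytes and activated stellate cells, and it is best known for its rise in steatohepatitis, fibrosis and liver cancer.

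The mature sequences are shown because the comparisons depend on which reads a count can hold. They are from RefSeq (GRCm38.p6), 5′ to 3′, with bases 2 to 8, the seed that pairs with targets, in capitals.
miR-21a-5p: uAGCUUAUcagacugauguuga
miR-21a-3p: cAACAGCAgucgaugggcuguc
miR-21b: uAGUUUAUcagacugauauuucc
miR-21c: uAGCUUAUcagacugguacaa

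The hairpin lies at chr11:86584067-86584158 on the minus strand, with the 5p strand at chr11:86584120-86584141 and the 3p strand at chr11:86584082-86584103. By the GENCODE M21 annotation it is inside exon 12 of Vmp1 (a membrane protein of autophagy) on the same strand, in the untranslated part of that exon. The 2 arms have different seeds and so pair with different target sites. miR-21b (chr3:29636768-29636790, plus strand, within an intron of Egfem1) and miR-21c (chr8:128278188-128278208, minus strand, in no other gene) are close copies of the 5p strand. Counted from the 5′ end of miR-21a-5p, miR-21b differs by C4U, G18A, G21U and A22C and so has another seed, whereas miR-21c has the same seed and differs by A16G, G18A, U19C, U20A and G21A. They also differ in length, with 22 bases in miR-21a-5p, 23 in miR-21b and 21 in miR-21c.

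These copies were almost without reads. miR-21b had 3 to 11 counts in a library and miR-21c had 2 to 12, against 144326 to 420794 for miR-21a-5p, which makes the sum of both copies 55.9 counts per 1000000 counts of miR-21a-5p. The copies had equal counts in 13 of the 23 libraries and never differed by more than 2, and how the counting divided reads that match more than one of them is not given in the sources used here. Adding them to miR-21a-5p left its differences between groups at the same values.

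Library totals were 5242218 to 8139344 counts in the reference, 4340903 to 7220112 in HFoleic and 3725432 to 4947990 in HFepa, and levels are given as CPM, a miRNA's share of its library on a scale of 1000000 counts, after TMM scaling of the library totals. 3 reference libraries each stood apart from the other 22 libraries in miRNAs that mark cell types. In library 3, 4 hepatocyte miRNAs summed to 113597 CPM against 207718 to 267169 elsewhere, and miR-199a-3p of stellate cells and fibroblasts, the cells that make collagen, stood at 1738 CPM against 379 to 628. The same library had 1094 CPM over 5 miRNAs of biliary epithelium (151 to 333 elsewhere) and 124 CPM of miR-34a-5p (13.0 to 78.5 elsewhere). Library 4 held 205 CPM of the muscle miRNA miR-133a-3p (1.30 to 11.4 elsewhere), and library 5 held 2020 CPM of miR-375-3p, a miRNA of pancreatic islets (9.00 to 57.3 elsewhere). For this reason the results against the reference are also given without these 3 libraries, an alternative chosen after the data were seen.

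miR-21a-5p was among the most abundant miRNAs of these livers. Its mean of 43625 CPM was rank 5 of the 386 miRNAs with enough counts to test, between miR-30a-5p at 67120 CPM and miR-26a-5p at 40739 CPM, and it took 4.40% of all counts. Its rank stayed between 4 and 7 in each library. miR-21a-3p had a mean of 209.8 CPM, rank 102, and 0.0209% of all counts, with ranks of 86 to 127 in single libraries. Its raw counts were 650 to 1802 in a library, and both arms passed the filter on low counts.

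In reference livers miR-21a-5p was 37057 CPM at the lowest, 48456 at the median and 57075 at the highest. In HFoleic the same values were 32993, 38803 and 51404 CPM. In HFepa they were 34348, 42681 and 53354 CPM. The order of the group means was therefore reference, HFepa, HFoleic, with 47799 ± 6587 (SD, n = 8), 43283 ± 6162 (n = 7) and 39752 ± 5647 (n = 8) CPM, and the ranges of all groups overlapped. The highest liver of all was reference library 3, the library with few hepatocyte miRNAs, and the lowest reference liver was library 5. The highest HFoleic liver was library 23, and the next was at 43465 CPM.

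**Figure D1:**
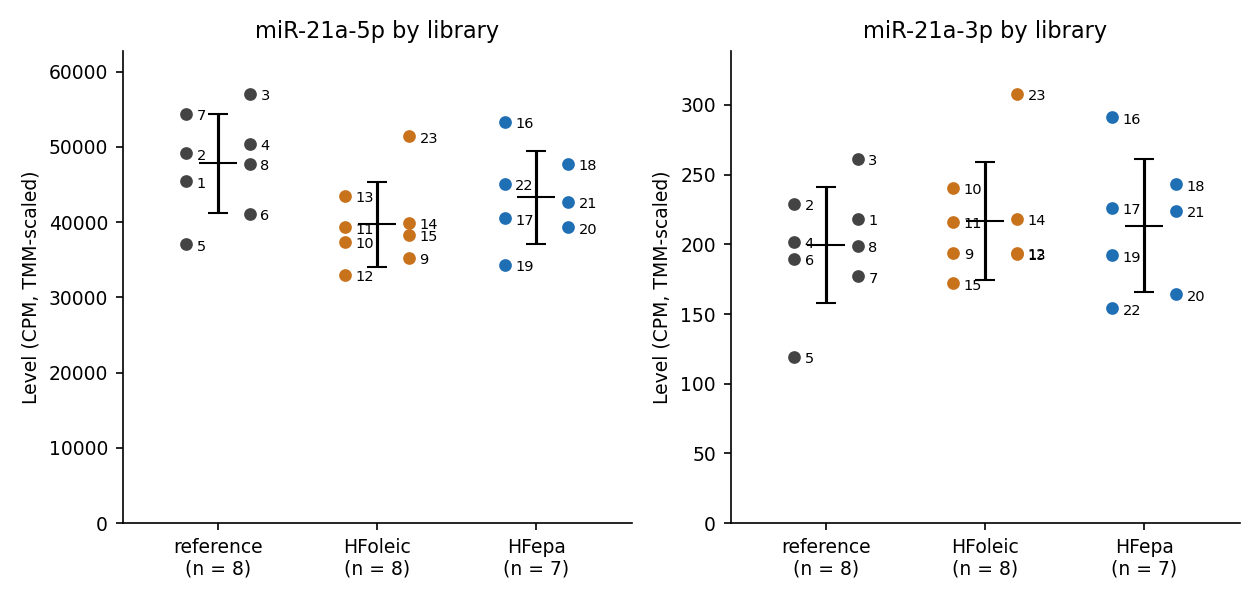
Levels of miR-21a-5p (left) and miR-21a-3p (right) in CPM after TMM scaling, 1 point per mouse with its library number, by group; the bar is the mean and the whiskers 1 SD. For the 5p arm 7 of 8 HFoleic points lie below the reference median of 48456 CPM, and for the 3p arm 4 of 8 lie below the reference median of 201 CPM. The ranges of the groups overlap for both arms. For the 3p arm they are 119 to 261 CPM in the reference, 172 to 308 in HFoleic and 154 to 291 in HFepa.

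The HFoleic vs. reference comparison asks what the high-fat diet changed in the control lineage. miR-21a-5p was lower in HFoleic, by a log2 fold change of -0.27 (SE 0.10), with 7 of 8 HFoleic livers below the reference median and 2 below every reference liver. A call needed an absolute log2 fold change over 0.25 and a Benjamini-Hochberg adjusted p under 0.05 in edgeR's quasi-likelihood test, and with an adjusted p of 0.0850 from that test the difference was not called. By p it was at rank 57. Of the 386 miRNAs tested, 48 were called in this comparison, which is 12.4%, and neither arm of miR-21a was among them. With library size in place of TMM the 5p arm was called (-0.35, edgeR adjusted p = 0.0267), as it was by limma-voom with quality weights (-0.28, adjusted p = 0.0375) and in edgeR without HFoleic library 23 (-0.33, adjusted p = 0.0298). Without reference libraries 3, 4 and 5 the difference was -0.29 with an edgeR adjusted p of 0.144, and 2 miRNAs in all were called in place of 48.

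An alternative setting cut the libraries by number after library 11. The labels mark no such cut and name no batches, so the 2 ranges are not known to be batches. This cut divides HFoleic, and libraries 1 to 11 hold the whole reference group with 3 HFoleic livers. Within these 11 the 5p difference was -0.35 (SE 0.12, edgeR adjusted p = 0.591), with 37328 ± 2023 CPM in the 3 HFoleic livers against 41206 ± 6834 CPM in the 5 numbered 12 and above. No HFepa library is numbered under 12 and no reference library above 11, so the 2 groups cannot be compared within either range. HFoleic has livers in both, and a term for the range in the fit of 3 groups put miR-21a-5p at -0.36 (SE 0.14, edgeR adjusted p = 0.415) in HFoleic vs. reference and at -0.29 (SE 0.18, adjusted p = 0.732) in HFepa vs. reference. With this term 1 miRNA in all was called in HFoleic vs. reference and 0 in HFepa vs. reference, and none of the calls named below from all 23 libraries was kept.

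The HFepa vs. reference comparison sets the omega 3 lineage on the high-fat diet against low-fat control livers. miR-21a-5p was at a log2 fold change of -0.14 (SE 0.10, edgeR adjusted p = 0.385), with 6 of 7 HFepa livers below the reference median and 1 below all reference livers. The background in this comparison was 61 of 386 miRNAs called, or 15.8%. Without reference libraries 3, 4 and 5 the 5p value was -0.16 (edgeR adjusted p = 0.396), and 32 miRNAs in all were called.

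The HFepa vs. HFoleic comparison, that of the 2 lineages on the same diet, gave a log2 fold change of 0.12 (SE 0.10, edgeR adjusted p = 0.946) for miR-21a-5p. It was -0.03 after quantile normalization with limma, so its direction depended on the scaling. No miRNA was called in this comparison (0 of 386, or 0%, in edgeR and in DESeq2, 1 by limma-voom), while 22 had an unadjusted p under 0.05 in edgeR.

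miR-21a-3p showed no ordered difference. It was 119, 201 and 261 CPM at the lowest, median and highest of the reference, 172, 205 and 308 CPM in HFoleic, and 154, 224 and 291 CPM in HFepa. The group means were 199 ± 41.6 (SD, n = 8), 217 ± 42.3 (n = 8) and 213 ± 47.8 (n = 7) CPM, closer to each other than 1 SD of any group. Its log2 fold changes were 0.12 (SE 0.15, edgeR adjusted p = 0.621) in HFoleic vs. reference, 0.10 (SE 0.15, adjusted p = 0.732) in HFepa vs. reference and -0.02 (SE 0.15, adjusted p = 0.968) in HFepa vs. HFoleic. Within libraries 1 to 11 the HFoleic vs. reference value was 0.13 (edgeR adjusted p = 0.824), and without reference libraries 3, 4 and 5 it was 0.07 (adjusted p = 0.840). Reference library 5 was the lowest of all 23 livers for this arm, and HFoleic library 23 the highest.

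**Figure D2:**
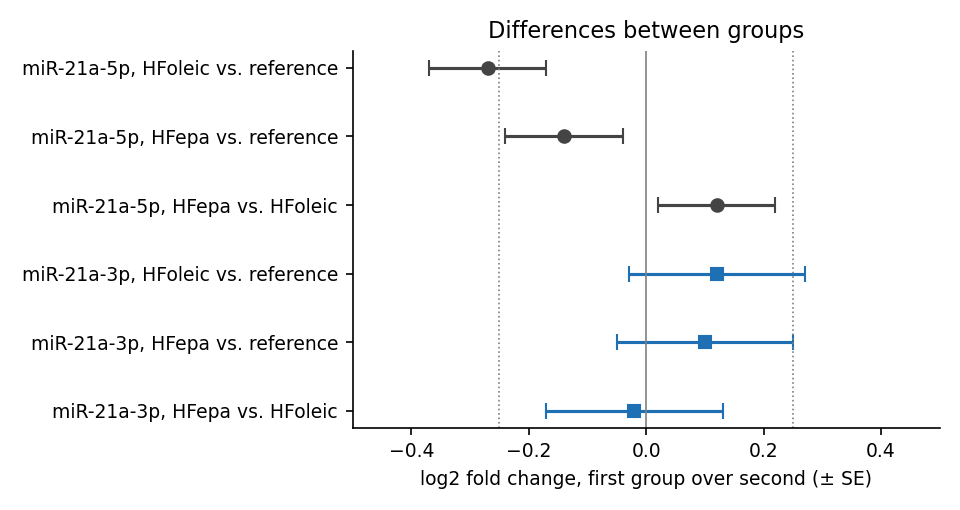
Log2 fold changes of both arms in the 3 comparisons, as points with whiskers of 1 SE from the edgeR fit of 23 libraries; dotted lines mark a log2 fold change of 0.25 in either direction. The 5p value in HFoleic vs. reference, -0.27, is the only one past a dotted line, and no value passed the adjusted p.

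The spread among mice of a group was 13.8% to 14.2% of the mean (coefficient of variation) for the 5p arm. This was near the median of the 259 miRNAs that averaged 10 CPM or more, 16.5% in the reference, 15.1% in HFoleic and 14.5% in HFepa. For the 3p arm it was 19.5% to 22.4%, above these medians in every group.

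The ratio of the arms was taken from the raw counts of each library, so it does not depend on scaling between libraries. Over all livers the 5p strand outnumbered the 3p strand by 209.6 to 1 (geometric mean), and the 3p strand was 0.474% of the counts of both arms. Among 100 hairpins with both arms tested, this was rank 16 by imbalance, against a median absolute log2 ratio of 3.93, and the 5p strand was the larger in 56 of the 100. Some entries mirror or repeat each other, such as miR-122 and miR-122b (mean log2 ratios of 4.07 and -4.09) or miR-486a and miR-486b (0.84 and 0.83). Counts over the 100, here and below, are therefore not of independent hairpins.

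The log2 ratio of 5p to 3p was 7.70 at the lowest, 7.84 at the median and 8.28 at the highest in the reference. In HFoleic it was 7.28, 7.51 and 7.81. In HFepa it was 7.48, 7.57 and 8.20. All 8 HFoleic livers were below the reference median and 6 of them below every reference liver, while HFepa spread over both ranges, with 5 of 7 livers below every reference liver and library 22 near the top of the reference. The 3p strand accordingly made up 0.415% of the counts of both arms in the reference, 0.547% in HFoleic and 0.490% in HFepa.

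**Figure D3:**
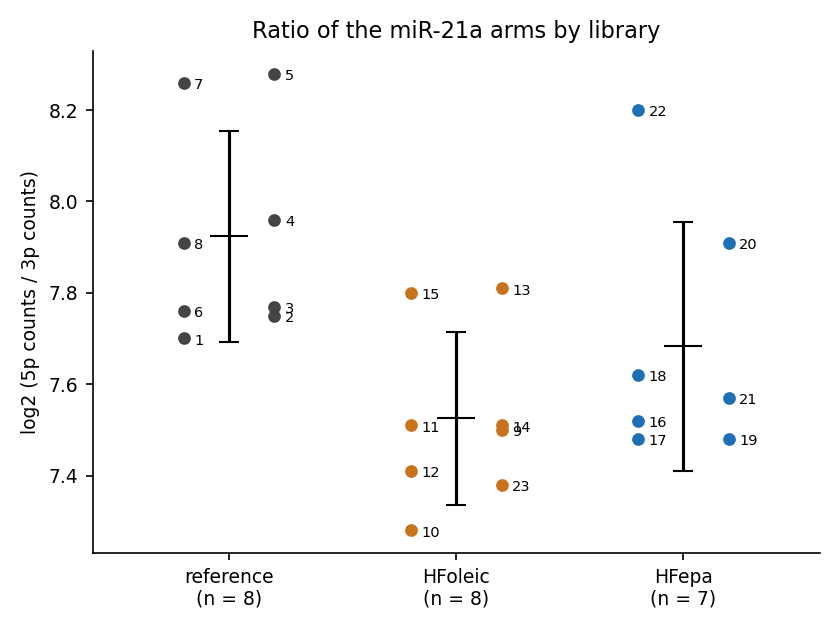
Log2 ratio of 5p to 3p raw counts, 1 point per mouse with its library number; the bar is the mean and the whiskers 1 SD. The HFoleic points end at 7.81, and the reference points start at 7.70. The axis does not start at 0.

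The mean log2 ratio was 7.92 ± 0.23 (SD, n = 8) in the reference, 7.53 ± 0.19 (n = 8) in HFoleic and 7.68 ± 0.27 (n = 7) in HFepa. In HFoleic vs. reference it fell by 0.40 (SE 0.11), to 0.759 of the reference ratio, with a two-sided exact permutation p of 0.00249 and an adjusted p of 0.00746 over the 3 comparisons. Here 32 of the 100 hairpins, or 32.0%, had an unadjusted p under 0.05 (9 with a lower ratio and 23 with a higher one), 2 hairpins had a lower p than miR-21a, and 18 had a larger difference. The 32 hold entries that mirror or repeat each other, such as miR-126a and miR-126b (differences of 0.150 and -0.188) and miR-486a and miR-486b (0.091 and 0.085). Adjusted over all 100 hairpins, the exact permutation p for miR-21a was 0.0684, and 1 hairpin passed 0.05. Unequal arm ratios were thus frequent in this comparison, and only the adjustment over 3 comparisons puts miR-21a past the threshold.

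The difference was -0.49 within libraries 1 to 11 (exact permutation p = 0.0121, unadjusted). This is the smallest p that 3 HFoleic against 8 reference livers allow. The difference stayed between -0.44 and -0.35 when single libraries were left out. Without reference library 3 alone it was -0.42 (adjusted p = 0.0103). Without reference libraries 3, 4 and 5 together it was -0.35 and no longer passed (exact permutation, adjusted p = 0.0513). Without library 5 alone, the liver with the highest ratio of all, it was also -0.35 and still passed (exact permutation, adjusted p = 0.0149).

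In HFepa vs. reference the ratio differed by -0.24 (SE 0.13, exact permutation p = 0.0858, adjusted p = 0.129), with 38 of the 100 hairpins, or 38.0%, at an unadjusted p under 0.05. Without HFepa library 22 this difference was -0.33 and passed (exact permutation, adjusted p = 0.0130), and without reference libraries 3, 4 and 5 it was -0.19 (adjusted p = 0.233). In HFepa vs. HFoleic it was 0.16 (SE 0.12, exact permutation p = 0.233, adjusted p = 0.233), with 5 hairpins, or 5%, at an unadjusted p under 0.05, and 0.10 within libraries 12 to 23. The smallest two-sided p that these designs allow is 1.55e-04 for 8 against 8 and 3.11e-04 for 7 against 8.

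**Figure D4:**
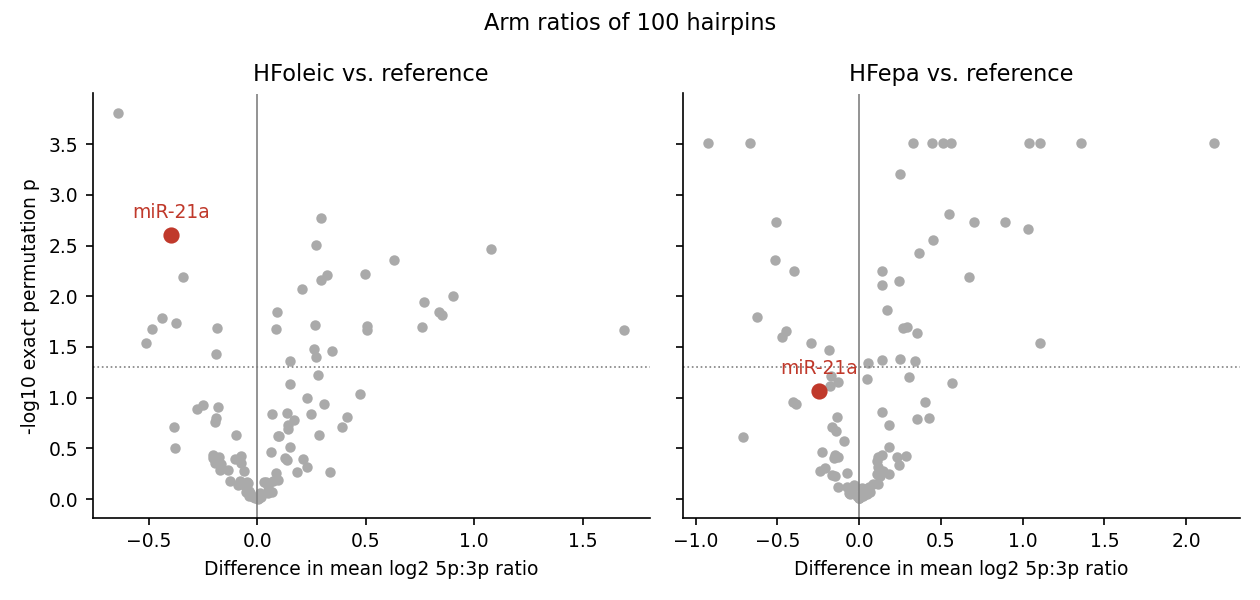
Differences in the mean log2 5p to 3p ratio of 100 hairpins (x axis) against -log10 of the two-sided exact permutation p (y axis), for HFoleic vs. reference (left) and HFepa vs. reference (right), 1 point per hairpin with miR-21a in red; the dotted line is an unadjusted p of 0.05. miR-21a lies at -0.40 with 2 hairpins above it on the left, and below the dotted line at -0.24 on the right.

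Across livers the 2 arms were positively related, short of the threshold after adjustment. On log2 CPM they gave a Pearson r of 0.46 over 23 livers (permutation p = 0.0250, adjusted over 6 relations 0.150) and a Spearman rho of 0.46 (permutation p = 0.0296, adjusted 0.177). Without the 2 livers farthest from the median of the 5p arm r was 0.42, and after the group means were subtracted it was 0.66. Within groups r was 0.73 in the reference (n = 8, exact permutation p = 0.0373), 0.68 in HFoleic (n = 8, exact p = 0.0748) and 0.56 in HFepa (n = 7, exact p = 0.187), and it was 0.36 in libraries 1 to 11 and 0.63 in libraries 12 to 23. Both arms share a library and its scaling factor, and no relation of the 6 passed after adjustment.

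The other 5 relations set the arms against depth and against miRNAs of other cells, and the 2 farthest livers are here those farthest from the median of depth or of these miRNAs. The 5p arm gave r = 0.15 with the library total (permutation p = 0.485) and rho = 0.13 (permutation p = 0.547), r = -0.08 without the 2 farthest livers. The 3p arm gave r = -0.06 with the total (permutation p = 0.783) and rho = -0.06 (permutation p = 0.791), r = -0.10 without the 2 farthest. With the summed stellate cell and fibroblast miRNAs, mostly miR-143-3p, the 5p arm gave r = 0.37 (permutation p = 0.0812) and rho = 0.21 (permutation p = 0.343), with r = 0.04 without the 2 farthest livers. With the summed leukocyte miRNAs it gave r = 0.29 (permutation p = 0.186) and rho = 0.18 (permutation p = 0.415), r = 0.09 without the 2 farthest. With miR-34a-5p, a p53 target that also rises in fatty liver, it gave r = -0.06 (permutation p = 0.783) and rho = -0.24 (permutation p = 0.274), r = -0.39 without the 2 farthest. Adjusted over the 6 relations, the p of r for these 5 was 0.727, 0.783, 0.244, 0.373 and 0.783 in the same order. Within libraries 1 to 11 these r were -0.06, 0.04, 0.35, 0.29 and 0.34, and within libraries 12 to 23 they were 0.10, 0.05, 0.51, 0.19 and -0.45.

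**Figure D5:**
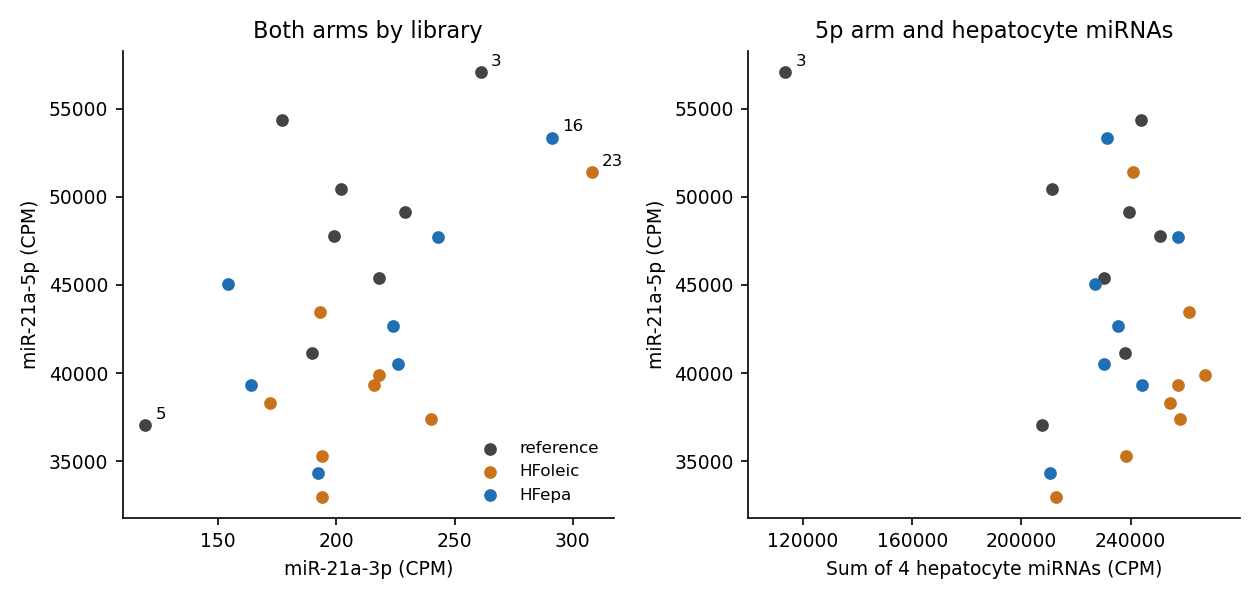
miR-21a-5p in CPM (y axis) against miR-21a-3p in CPM (left) and against the sum of 4 hepatocyte miRNAs in CPM (right), 1 point per mouse, with some library numbers printed; the axes do not start at 0. Library 3, the liver highest in miR-21a-5p at 57075 CPM, is also the lowest in hepatocyte miRNAs, at 113597 CPM.

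The miRNAs most like miR-21a-5p across the 23 livers, among the 258 others that averaged 10 CPM or more, were miR-592-5p (r = 0.60), miR-92a-1-5p (r = 0.58), miR-25-3p (r = 0.56), miR-195a-3p (r = 0.52) and miR-19a-3p (r = 0.51), on log2 CPM. The 3p arm of its own hairpin came at rank 8 (r = 0.46). These r also take in the differences between groups. After the group means were subtracted, r was 0.37 to 0.49 for the 5 miRNAs and 0.66 for the 3p arm. miR-25-3p, of the miR-106b~25 cluster, had 1134 ± 97.7 CPM in the reference, 948 ± 82.0 in HFoleic and 924 ± 63.4 in HFepa, and was called lower in both comparisons with the reference (-0.26, edgeR adjusted p = 0.0174, and -0.29, adjusted p = 0.00653). miR-19a-3p, of the miR-17~92 cluster, was also called lower in both (-0.40, edgeR adjusted p = 0.0469, and -0.49, adjusted p = 0.0224). Without reference libraries 3, 4 and 5 only miR-25-3p in HFepa vs. reference kept its call of these 4 (-0.25, edgeR adjusted p = 0.0472), and with the term for library number it was at -0.10 (adjusted p = 0.841). The most opposite miRNA, picked after its values were seen, was miR-802-5p (r = -0.70), a miRNA known from obese liver, at 683 ± 139.8 CPM in the reference, 957 ± 165 in HFoleic and 742 ± 378 in HFepa, with no call.

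miR-21 is read in fibrotic liver together with other miRNAs, and 8 miRNAs known to rise there were all tested. The 8 include miR-34a-5p, miR-214-3p, miR-221-3p and members of the miR-199 family. In HFoleic vs. reference none was called higher and 1 was called lower, miR-181b-5p (-0.52, edgeR adjusted p = 0.0278), where 12.4% of all 386 were called. The median of the 8 was -0.30 against 0 for all 386. In HFepa vs. reference 1 was called lower, miR-222-3p (-0.60, edgeR adjusted p = 0.0137), where 15.8% of all 386 were called. The median of the 8 was -0.39 here, against -0.06 for all. miR-181b-5p was at -0.32 (edgeR adjusted p = 0.0309) without reference library 3 and lost its call without reference libraries 3, 4 and 5 (-0.31, adjusted p = 0.0924). miR-222-3p lost its call without these 3 (-0.57, edgeR adjusted p = 0.0623) and was at 0.25 (adjusted p = 0.723) with the term for library number. The medians of the 8 moved with reference library 3, where the 8 miRNAs summed to 3342 CPM against 1172 to 1607 elsewhere: without it they were 0.05 and 0.04. Without library 3 miR-34a-5p, at 0.31 (edgeR adjusted p = 0.653) in HFoleic vs. reference with all libraries, was called higher at 1.02 (adjusted p = 0.0240), and it was at 0.97 (adjusted p = 0.0924) without reference libraries 3, 4 and 5; it was singled out after its values were seen. Of 5 miRNAs known to fall in fibrosis, among them the miR-29 family that represses collagens, none was called in either comparison, with medians of 0.04 and 0.01.

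Markers of cells that carry miR-21 are given beside its levels, since in whole liver fewer cells of a type and less RNA per cell cannot be told apart, and their part in the miR-21a differences was not tested. The 7 leukocyte miRNAs summed to 1785 to 3693 CPM in the reference, 1559 to 2470 in HFoleic and 1571 to 2476 in HFepa. The median log2 fold change of the 7 against the reference was -0.28 in HFoleic and -0.18 in HFepa. Without reference libraries 3, 4 and 5 these medians were 0.09 and 0.20. Only miR-150-5p of the 7, a miRNA of lymphocytes, was called. It was lower in HFoleic (-0.94, edgeR adjusted p = 0.0174) and in HFepa (-1.40, adjusted p = 0.00122), where 12.4% and 15.8% of all 386 miRNAs were called. Without reference libraries 3, 4 and 5 it was at -0.69 (edgeR adjusted p = 0.135) and -1.14 (adjusted p = 0.0136). With the term for library number it was at -0.36 (edgeR adjusted p = 0.554) in HFoleic and -0.31 (adjusted p = 0.841) in HFepa, and within libraries 1 to 11 it was at -0.35 (adjusted p = 0.675) in HFoleic. The 7 stellate cell and fibroblast miRNAs summed to 23694 to 43393 CPM in the reference, 20059 to 28801 in HFoleic and 23713 to 30605 in HFepa, with no call. Most of this sum was miR-143-3p, with means of 27425, 24447 and 25414 CPM in the same order. The median log2 fold change of the 7 against the reference was -0.42 in HFoleic and -0.39 in HFepa. Without reference library 3 these medians were -0.02 and 0.03. Of the 7, miR-199a-3p and miR-199b-3p had the same values with all libraries, -0.44 in HFoleic and -0.39 in HFepa, and may not be separate measures.

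Among the marker lists the hepatocyte miRNAs had the largest sum in every library, though reference libraries 3, 4 and 5 stood apart as given above. The 4 hepatocyte miRNAs, led by miR-192-5p and with miR-122-5p at 10804 to 22877 CPM, summed to 113597 to 250728 CPM in the reference, 212715 to 267169 in HFoleic and 210479 to 257405 in HFepa, with no call. The 4 red blood cell miRNAs had no call either. Over all 386 miRNAs 12.4% were called in HFoleic vs. reference and 15.8% in HFepa vs. reference. Of 5 biliary miRNAs miR-429-3p was called lower in HFepa vs. reference (-1.22, edgeR adjusted p = 0.0340), and without reference library 3 it was at -0.48 (adjusted p = 0.0750). Of 2 endothelial miRNAs miR-126a-5p was called higher in HFepa vs. reference (0.25, edgeR adjusted p = 0.0416), and it was at 0.16 (adjusted p = 0.188) without reference libraries 3, 4 and 5. The muscle miRNA miR-133a-3p and the islet miRNA miR-375-3p were called lower in both comparisons with the reference, and neither was called in edgeR without reference libraries 3, 4 and 5.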

How the data were processed

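Small RNA of liver was sequenced in 23 mice (8 reference, 8 HFoleic, 7 HFepa), grouped by their labels. Members and lists were chosen with earlier results of these data known.

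Per the study's methods, the authors trimmed adapters with the FASTX-Toolkit and aligned reads with Bowtie in ncPRO-seq to miRBase miRNAs. The submitters' processing notes list bcl2fastq 2.17.1.14. The genome is named both GRCm38.p6 and mm9 in the methods and mm10 in the notes, so coordinates are those of RefSeq and GENCODE, matched by miRNA name (1045 of 1218 matched). The labels and the methods give different amounts of RNA per library. The authors deposited raw counts per mature miRNA, which were used here. They also deposited a signal per library (counts over size factors), and log2 fold changes and p-values of their own comparisons, which were not used. Reads carried no molecular identifiers, so counts are not independent molecules. Replicates differed by more than sampling noise.

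edgeR 4.0.16 (R 4.3.3) was run with filterByExpr by group, TMM factors and 1 quasi-likelihood fit of 3 groups, with Benjamini-Hochberg adjustment over 386 miRNAs that hold 99.98% of all counts. The study's DEGseq was not run. Calls needed both an adjusted p under 0.05 and a log2 fold change beyond 0.25 in either direction. The SE is the log2 fold change over the square root of F. The arm ratio, log2((5p + 0.5)/(3p + 0.5)) of raw counts, was compared by two-sided exact permutation tests, and relations on log2 CPM (prior count 2) by 100000 permutations (Python 3.11.15, scipy 1.17.1). The edgeR fit and the arm ratio test were checked on simulated data, and the test of relations was not. The text names both arms, their near-identical copies, the abundance neighbours of the 5p arm, the 5 miRNAs most like it, and called list members averaging 10 CPM or more. Alternatives were DESeq2 1.42.0, limma 3.58.1 after quantile normalization, limma-voom, library size or upper-quartile factors in place of TMM, no filter on low counts, a minimum of 10 counts per library, fits of 2 groups, a term for the range of library numbers, the 2 ranges of library numbers, other pseudocounts, copies summed and each library left out. Leaving out reference libraries 3, 4 and 5 together was added after the data were seen.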

Additional observations from a re-analysis of the deposited data

Results flagged for a closer look

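Of 39 sets of values in a group (both arms, their ratio and the marker sums), 6 had a sample whose gap to its nearest neighbour was above Dixon's limit of 0.526 of the range for 8 samples. Chance flags about 1 in 20 such sets. None was an arm of miR-21a or their ratio.

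Reference library 3 was alone in 3 of them, all in summed CPM. It was lowest in hepatocyte miRNAs at 113597 (207718 to 250728 in the other reference livers), highest in biliary epithelial miRNAs at 1094 (151 to 285) and highest in the miRNAs known to rise in fibrotic liver at 3342 (1172 to 1528). This liver also had the most miR-21a-5p, 57075 CPM, and without it the 5p difference was -0.22 in HFoleic vs. reference (edgeR adjusted p = 0.139) and -0.10 in HFepa vs. reference (adjusted p = 0.540).

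Reference library 4 was highest in the sum of muscle miRNAs at 215 CPM (1.85 to 11.6 in the other reference livers), of which miR-133a-3p was 205. Reference library 5 was highest in the sum of pancreas miRNAs at 2021 CPM (13.0 to 57.4), of which miR-375-3p was 2020. The other pancreas miRNAs, miR-216a-5p and miR-217-5p, reached at most 0.893 and 0.536 CPM in the reference. Library 5 was also the lowest reference liver for both arms, at 37057 and 119 CPM, and without it the 5p difference in HFoleic vs. reference was -0.33 (edgeR adjusted p = 0.0601). HFoleic library 14 was highest in endothelial miRNAs at 26007 CPM (18214 to 21287 in the other HFoleic livers).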

How the results depend on the processing

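Neither arm was called in any comparison under the other settings tried, except the 5p arm in HFoleic vs. reference, called with library size in place of TMM (-0.35), by limma-voom (-0.28) and in edgeR without HFoleic library 23. Over single libraries left out that difference was -0.33 to -0.21. In HFepa vs. HFoleic the 5p arm was at -0.03 after quantile normalization, and the 3p arm at 0.01 by limma-voom and -0.12 to 0.07 over single libraries left out, with a changed sign at 0.01, 0.04, 0.05 and 0.07 without libraries 19, 20, 22 and 23. The arm ratio in HFepa vs. reference was -0.33 to -0.19 over single libraries left out, and in HFoleic vs. reference -0.35 without reference libraries 3, 4 and 5. Without these 3, miR-133a-3p was at 0.28 (HFoleic vs. reference) and 0.08 (HFepa vs. reference), and miR-375-3p at 0.13 (HFoleic vs. reference); miR-222-3p was at 0.25 (HFepa vs. reference) with a term for library number. The causes were not tested.

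The number of miRNAs called in HFoleic vs. reference was 48, and 28 by DESeq2, 10 after quantile normalization, 31 by limma-voom, 29 with no filter, 7 with 2 groups in the fit, 1 with a term for library number, 0 in libraries 1 to 11, 2 without reference libraries 3, 4 and 5, and 12 to 53 over single libraries left out (12 without reference library 5, and 24, 21 and 20 without HFoleic libraries 13, 14 and 15). In HFepa vs. reference it was 61, and 24 after quantile normalization, 40 with 2 groups, 0 with the term for library number, 32 without the 3 libraries, and 32 to 66 over single libraries left out (32 without HFepa library 22, 36 without reference library 5, 38 without HFepa library 16 or 18). In HFepa vs. HFoleic it was 0, and 1 by limma-voom, with 0 to 1 over single libraries left out (1 without HFepa library 19). Library size in place of TMM moved the median of all miRNAs from -0.06 to -0.12 in HFepa vs. reference and from 0 to -0.08 in HFoleic vs. reference. No paired analysis was possible because each liver came from another mouse and a shared replicate number only follows the order of the samples. The 3p arm, at 650 to 1802 counts a library, has the wider SE of the 2 arms.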
